A study of Mus musculus with 6 samples.

Results

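The interferon-stimulated genes analysed here are 46 genes that cells switch on when interferon binds its receptors. They were taken by symbol from a fixed list, and all 46 were found among the 17739 gene symbols of the deposited table. Expression was measured by RNA sequencing of mammary epithelial organoids, pieces of milk-producing epithelium that collagenase and pronase release from the gland (here the second and the third glands), from FVB mice on lactation day 1. The wild-type group and the group with a conditional knockout of Nmi (labelled Nmi-/-) held 3 mice each, with 1 library per mouse. The labels name no agent given to the mice, and they do not name the Cre driver, the deleted exons or the age of the mice. Per the series' description, the comparison concerns how loss of Nmi contributes to excess proliferation of the mammary epithelium. Values are FPKM, fragment counts divided by gene length and by library size. The list was divided by role into 26 type I antiviral effectors, 4 transcription factors, 4 nucleic acid sensors, 8 interferon-inducible GTPases and 4 antigen processing genes.

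Type I and type III interferons act through receptor-bound kinases that activate a transcription factor complex containing STAT2 and IRF9, which binds a DNA motif called the interferon-stimulated response element (ISRE). Type II interferon signalling leads to binding at another motif, the gamma-activated site (GAS). Many effectors are also switched on directly by IRF3 or by IRF7 when viral nucleic acid is sensed, without an interferon receptor. The NMI protein is itself interferon-inducible, binds STAT proteins and forms complexes with IFI35.

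RefSeq promoter windows, from 250 bases before to 50 bases after a start site on GRCm38.p6, were found for 37 of the 46 genes. Those without an entry were Mx1, Mx2, Oas2, Rtp4, Usp18, Parp9, Parp14, Zbp1 and Gbp6. The ISRE core was searched as 2 copies of GAAA with any 2 bases between them, and the GAS as TTCNNNGAA with N for any base, both on either strand. The ISRE core was found for 21 of the 37 members (56.8%), against 3.99% of all 27025 genes with a window. It was present for 10 of 19 antiviral effectors, 3 of 3 sensors, 6 of 7 GTPases, 1 of 4 transcription factors (Stat2) and 1 of 4 antigen processing genes (B2m). The GAS was found for 10 of the 37 members (27.0%), against 9.55% of all genes with a window. A match is a stretch of letters and was not tested for binding. The windows below run from 160 bases before the start site to the base before it. They are a selection from the members that carry either motif and whose values are described below. Bst2, Gbp2 and Irgm1, among others, also carry a motif there and are not shown. The windows shown are written 5′ to 3′ in the direction of the gene, and capitals mark every ISRE core or GAS match. Where a match lies on the opposite strand, the capitals show its complement, which for the ISRE core is 2 copies of TTTC with 2 bases between them.
Ifit1, chr19:34640729-34640888, plus strand: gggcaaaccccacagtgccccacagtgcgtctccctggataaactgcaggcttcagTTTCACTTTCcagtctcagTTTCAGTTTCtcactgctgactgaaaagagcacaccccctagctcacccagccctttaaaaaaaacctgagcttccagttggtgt
Ifit3, chr19:34583369-34583528, plus strand: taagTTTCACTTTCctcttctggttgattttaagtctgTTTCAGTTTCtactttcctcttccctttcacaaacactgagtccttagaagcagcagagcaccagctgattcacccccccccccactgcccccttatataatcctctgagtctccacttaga
Isg15, chr4:156200819-156200978, minus strand: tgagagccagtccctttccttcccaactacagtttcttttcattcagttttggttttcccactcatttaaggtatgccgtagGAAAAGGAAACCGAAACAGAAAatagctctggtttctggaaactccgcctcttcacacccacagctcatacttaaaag
Rsad2, chr12:26456453-26456612, minus strand: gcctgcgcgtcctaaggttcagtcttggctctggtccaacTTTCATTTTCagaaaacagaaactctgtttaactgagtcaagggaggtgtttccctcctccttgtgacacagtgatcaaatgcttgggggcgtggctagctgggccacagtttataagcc
Oas1a, chr5:120907526-120907685, minus strand: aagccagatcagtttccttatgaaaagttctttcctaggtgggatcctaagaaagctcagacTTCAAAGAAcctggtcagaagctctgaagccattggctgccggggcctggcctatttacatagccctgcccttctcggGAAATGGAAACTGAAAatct
Gbp3, chr3:142559884-142560043, plus strand: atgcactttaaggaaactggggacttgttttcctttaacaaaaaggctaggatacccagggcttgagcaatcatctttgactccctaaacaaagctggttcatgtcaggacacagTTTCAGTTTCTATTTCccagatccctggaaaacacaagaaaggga
Igtp, chr11:58199396-58199555, plus strand: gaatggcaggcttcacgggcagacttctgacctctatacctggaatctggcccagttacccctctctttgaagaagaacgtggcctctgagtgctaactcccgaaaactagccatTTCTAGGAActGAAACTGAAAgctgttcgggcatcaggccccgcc
Irf1, chr11:53769854-53770013, plus strand: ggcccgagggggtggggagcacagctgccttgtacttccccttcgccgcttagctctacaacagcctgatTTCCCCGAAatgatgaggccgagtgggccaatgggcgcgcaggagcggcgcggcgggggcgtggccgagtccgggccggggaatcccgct
B2m, chr2:122147527-122147686, plus strand: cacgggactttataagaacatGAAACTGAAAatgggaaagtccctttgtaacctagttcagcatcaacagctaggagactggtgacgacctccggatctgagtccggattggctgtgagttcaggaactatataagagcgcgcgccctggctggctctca

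Ifit1, Ifit3, Isg15 and Rsad2 above belong to the antiviral effectors with their highest value in wild-type replicate 1. Oas1a, Gbp3, Igtp and Irf1 had their highest value in knockout replicate 3. In Isg15 and Oas1a the ISRE cores overlap one another, so neighbouring matches share letters. The same holds for Gbp3. Irf1 carries a GAS and no ISRE core in its windows. Igtp carries both motifs within a few bases of each other. No match of either motif was found in the windows of Cmpk2, Dtx3l, Ifi44, Ifi47, Irf7, Irf9, Oasl1, Oasl2, Parp12, Psmb9, Tap1 and Xaf1.

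**Figure D1:**
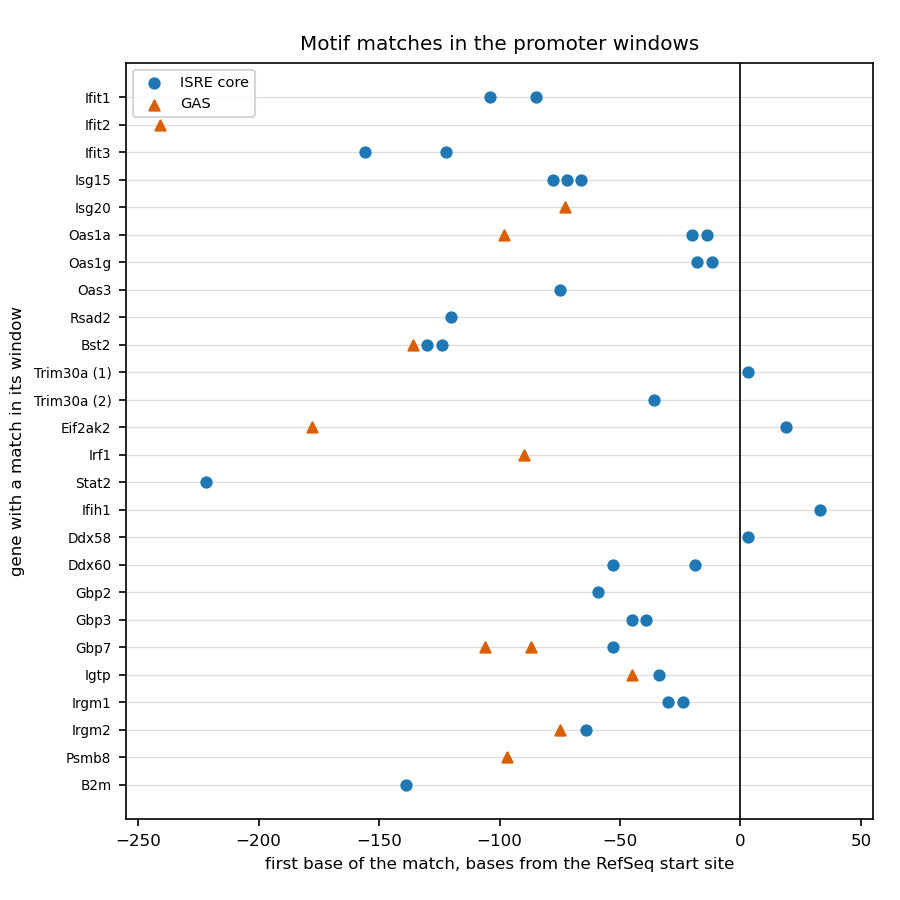
Position of each ISRE core match (circles) and GAS match (triangles) in the promoter windows, with the first base of the match on the x axis in bases from the RefSeq start site and 1 row per window that holds a match. A number in brackets separates the windows of a gene with more than 1. Most ISRE cores lie in the 160 bases before the start site, and Stat2 has one at -222.

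The libraries also differed within each genotype. The 8 milk protein genes used here held 44.7% of the FPKM sum in wild-type replicate 1, 57.7% to 66.2% in the other 2 wild-type libraries, 60.3% to 63.0% in knockout replicates 1 and 2, and 72.7% in knockout replicate 3. FPKM is a share of the library, so a larger milk share leaves less for other genes. Wild-type replicate 1 had the highest value for 63.5% of the 9767 genes tested, and knockout replicate 3 had the lowest for 65.8%. Of 8 luminal epithelial markers, 0 were listed at 0 in any library, and their summed levels were 3230 to 6756 FPKM in wild type and 1334 to 4762 FPKM in the knockout. In bulk samples fewer cells of a type, less RNA per cell and a smaller share left beside milk RNA cannot be told apart from such sums.

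No interferon-stimulated gene changed between the genotypes past the threshold. A filter of at least 1 FPKM in at least 3 libraries left 37 of the 46 members and 9767 genes in all. With limma on log2(FPKM + 1) and Benjamini-Hochberg adjustment over all genes, 0 of the 37 members passed an adjusted p of 0.05, and 0% of all genes did (smallest adjusted p among members 0.768). At an unadjusted p under 0.05 there were 0 members, against 130 of all genes (1.33%). Of the 37 members, 21 had a fold change above 0 and 16 below it. Their median log2 fold change was 0.05, beside a median of -0.21 over all genes tested, and 32 of the 37 lay above that median. By role the medians were -0.05 for antiviral effectors, 0.07 for transcription factors, 0.15 for sensors, 0.19 for GTPases and 0.01 for antigen processing. Estimates ran from -0.47 (Oasl1) to 0.38 (Gbp3). The 95% confidence intervals had a median half-width of 0.56 on the log2 scale. For a single gene before adjustment, changes of about that size or less could not be told from 0 at this precision. Adjustment over all genes asks for larger changes, and even Nmi, the deleted gene, did not pass it (values below). Without knockout replicate 3 the members' median was -0.05 and that of all genes -0.08, a gap of 0.04 against 0.25 with all libraries. Without wild-type replicate 3 the medians were -0.10 and -0.32, and without wild-type replicate 1 they were 0.19 and -0.10. Fold changes above 0 were found for 32 of 37 members without wild-type replicate 1 and for 10 without wild-type replicate 3. After trimmed-mean rescaling, which put the median of all genes at 0.01, 32 were above 0 and 5 below.

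**Figure D2:**
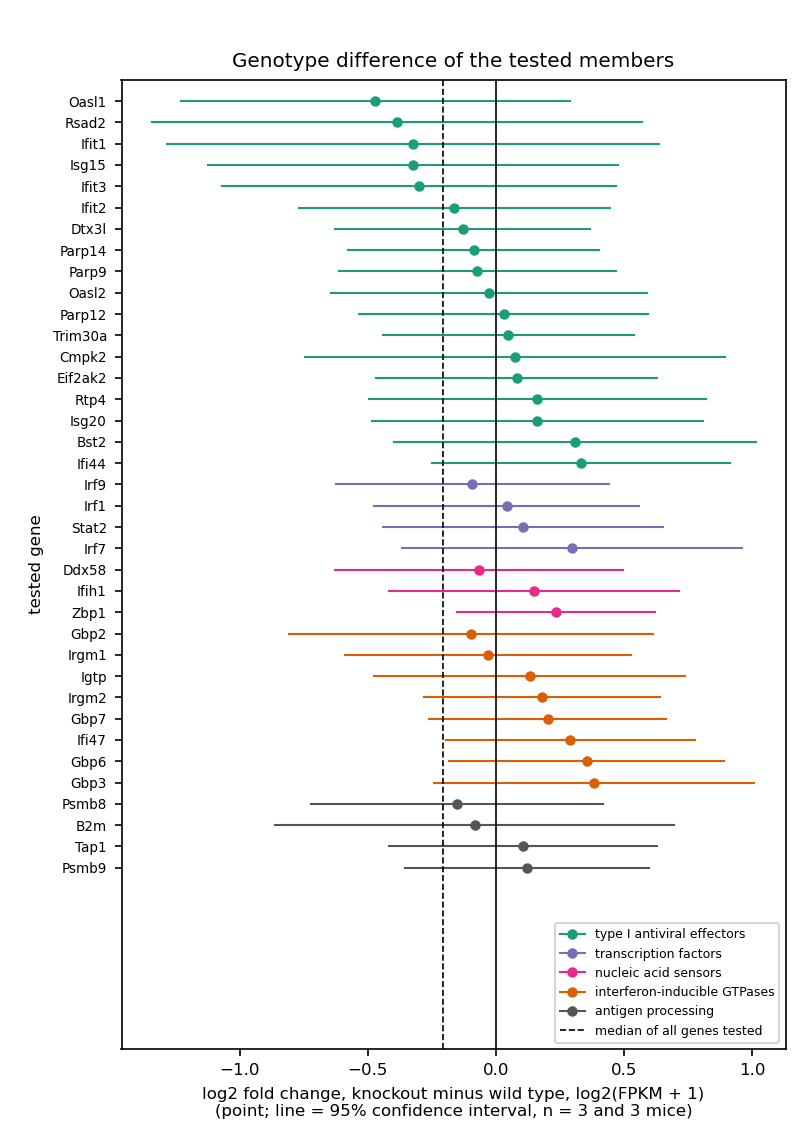
Log2 fold change of each of the 37 tested members, knockout minus wild type on the log2(FPKM + 1) scale (x axis, points), with 95% confidence intervals (lines) for 3 and 3 mice, coloured by role. Every interval includes 0, and 32 of the 37 points lie to the right of the dashed line at -0.21, the median of all genes tested.

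The members varied between mice of the same genotype. Of the 37 tested members, 16 had their highest value in wild-type replicate 1 and 15 in knockout replicate 3. For wild-type replicate 1 that is 43.2% of the members, fewer than the 63.5% of all genes tested. For knockout replicate 3 it is 40.5% of the members, beside 7.74% of all genes tested. The lowest value fell in wild-type replicate 3 for 22 members (59.5%), beside 10.8% of all genes tested. After scaling to the FPKM sum outside milk proteins, 25 of the 37 were highest in knockout replicate 3 (67.6%), beside 19.7% of all genes, and 7 in wild-type replicate 1 (18.9%), beside 36.5%. Trimmed-mean rescaling also gave 25 in knockout replicate 3, beside a larger share of all genes, 29.98%. These counts describe 6 mice and were not tested. The ratio of the highest to the lowest library ran from 1.40 (Dtx3l) to 6.17 (Ifit3) among the tested members, with a median of 2.14, beside 2.09 over all genes tested.

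**Figure D3:**
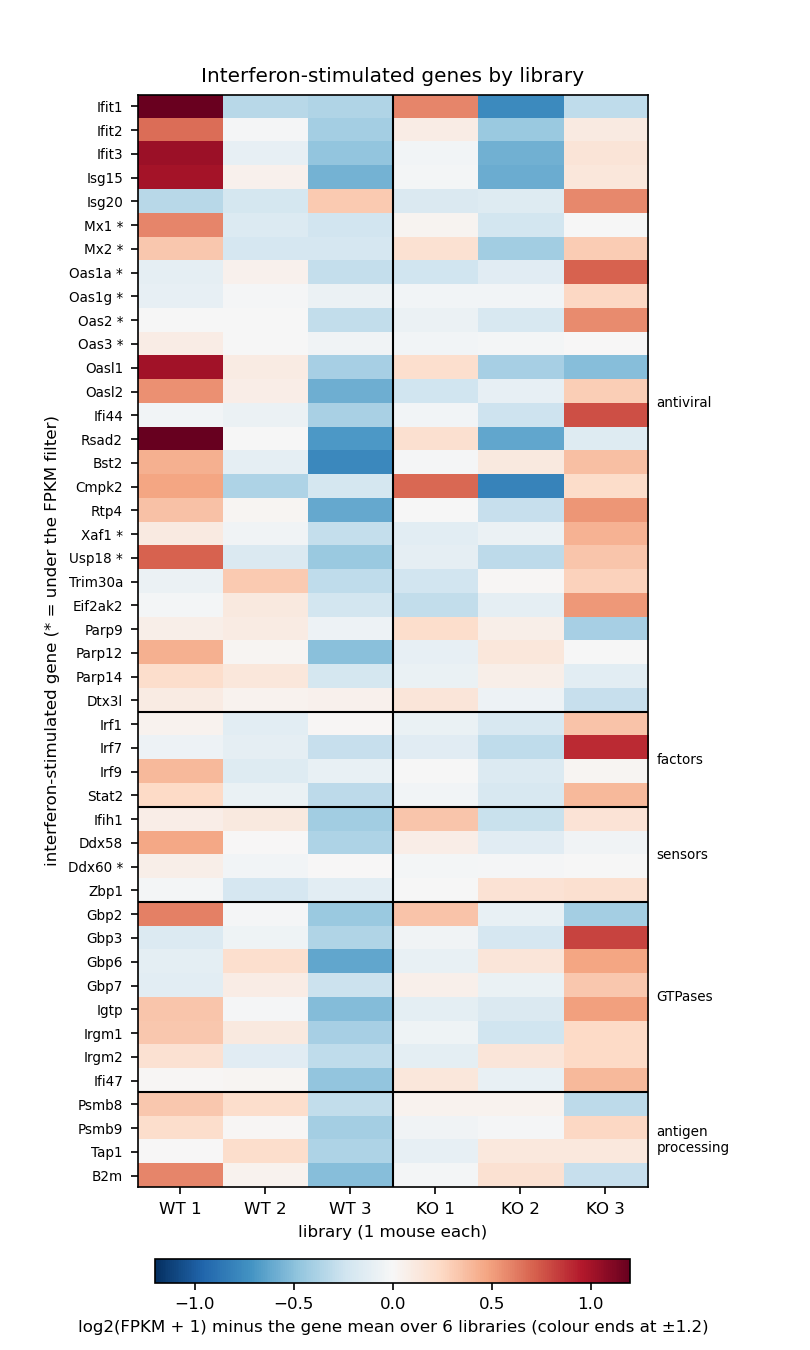
Level of all 46 members (rows, grouped by role) in the 6 libraries (columns, WT for wild type and KO for knockout), as log2(FPKM + 1) minus the gene's mean over the libraries, red above and blue below the mean. The Ifit genes, Isg15, Oasl1 and Rsad2 are reddest in wild-type replicate 1, while Oas1a, Oas2, Ifi44, Irf7 and Gbp3 are reddest in knockout replicate 3.

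Of the 18 tested antiviral effectors, 10 had their highest value in wild-type replicate 1, beside 63.5% of all genes tested. The values of every library are given here for genes chosen by rank within the role group and for Ifit1, Ifit3, Isg15, Usp18, Cmpk2, Oas1a, Oas2, Eif2ak2 and Igtp, which were chosen after their values were seen. Ifit1, which binds viral RNA lacking the host's cap methylation, had 9.33, 2.61 and 2.54 FPKM in wild-type replicates 1 to 3 and 5.83, 1.68 and 2.67 FPKM in knockout replicates 1 to 3. Ifit3, which binds and steadies IFIT1 in the human protein complex, had 4.03, 1.29 and 0.766 FPKM in wild type and 1.40, 0.653 and 1.74 FPKM in the knockout. Both were highest in wild-type replicate 1 and lowest in knockout replicate 2, and the groups overlapped. Ifit3 has a near-identical copy, Ifit3b (97.8% identity over 97.4% of the transcript), so reads of the pair may have been divided either way. Ifit3b itself had 3.07 FPKM in wild-type replicate 1 and 0.298 to 0.938 FPKM in the other 5 libraries.

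Isg15, a ubiquitin-like modifier, had 8.26, 3.80 and 2.13 FPKM in wild type and 3.54, 2.07 and 4.08 FPKM in the knockout. Usp18, the protease that removes ISG15 and restrains the type I receptor, had 1.73, 0.488 and 0.232 FPKM in wild type and 0.559, 0.346 and 1.11 FPKM in the knockout. In both genes wild-type replicate 1 was highest and knockout replicate 3 second. Part of the Isg15 transcript also matches another annotated sequence (95.2% identity over 63.8% of its length). Rsad2 (viperin), which makes a chain-terminating nucleotide, had 30.4, 11.9 and 7.05 FPKM in wild type and 13.8, 7.42 and 10.6 FPKM in the knockout. Oasl1, which restrains translation of Irf7, had 8.68, 4.15 and 2.64 FPKM in wild type and 4.52, 2.64 and 2.38 FPKM in the knockout. For both, the other 2 wild-type libraries lay within or near the knockout range. Cmpk2, a mitochondrial nucleotide kinase whose gene also lies on chromosome 12, had 9.84, 5.03 and 5.76 FPKM in wild type and 11.6, 3.49 and 8.10 FPKM in the knockout. Its highest value was in knockout replicate 1 and not in wild-type replicate 1, unlike that of Rsad2.

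The genotype estimates of these genes moved with single mice of either genotype. For Ifit1 the fold change was -0.33 on the log2 scale (SE 0.44); omitting wild-type replicate 1 gave 0.19 and omitting knockout replicate 2 gave -0.02. Ifit3 had -0.30, and 0.14 and -0.09 when the same libraries were omitted. For Isg15 the estimate was -0.32 (SE 0.36), and it became 0.10 with wild-type replicate 1 omitted, -0.11 with knockout replicate 2 omitted and -0.69 with wild-type replicate 3 omitted. Leaving out those libraries in the same order moved Rsad2 from -0.39 (SE 0.44) to 0.15, -0.17 and -0.83. Oasl1 went from -0.47 (SE 0.35) to -0.08, -0.39 and -0.79. The estimate for Cmpk2 was 0.07, and it ran from -0.25 without knockout replicate 1 to 0.49 without knockout replicate 2. None of these estimates kept its size when each mouse was left out in turn. Oasl1 had the smallest unadjusted p of the antiviral effectors, 0.199 (adjusted p = 0.768, limma). Mx1, a GTPase that traps viral nucleocapsids, was under the filter, with 0.824 FPKM in wild-type replicate 1 and 0.0345 to 0.241 FPKM in the others. Among markers of other cells, wild-type replicate 1 had the highest value for 6 of 8 luminal, 4 of 8 basal and 4 of 7 endothelial markers, and for 0 of 10 macrophage markers, beside 63.5% of all genes tested. The part of these cells in the result was not tested.

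**Figure D4:**
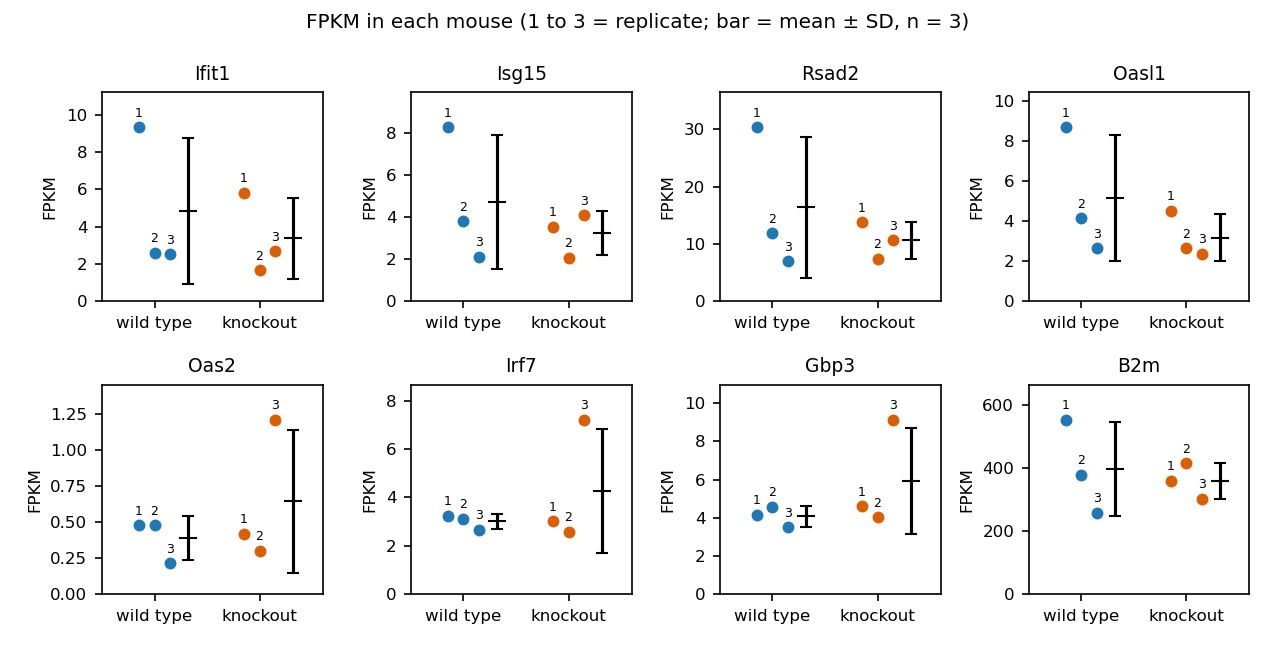
FPKM of 8 members in each mouse (y axis, linear from 0, points numbered by replicate), wild type in blue and knockout in orange, with the mean ± SD of 3 mice as bars. Wild-type replicate 1 stands highest for Ifit1, Isg15, Rsad2, Oasl1 and B2m, and knockout replicate 3 stands highest for Oas2, Irf7 and Gbp3.

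Other antiviral effectors were highest in knockout replicate 3, 8 of all 26 and 4 of the 18 tested, beside 7.74% of all genes tested. Isg20, Rtp4 and Xaf1 were among them and are covered in the next paragraph. Oas2, an oligoadenylate synthetase whose product activates RNase L, had 0.476, 0.478 and 0.212 FPKM in wild type and 0.418, 0.299 and 1.21 FPKM in the knockout. Oas1a, of the same enzyme family, had 0.297, 0.447 and 0.142 FPKM in wild type and 0.183, 0.272 and 1.28 FPKM in the knockout. Oas1g, its near-identical copy (97.6% identity), had 0.0621 to 0.125 FPKM in the other 5 libraries and 0.355 FPKM in knockout replicate 3. Knockout replicate 3 thus stood above the other 5 libraries for Oas2, Oas1a and Oas1g, which were all under the filter and not tested. Reads of Oas1a and Oas1g may have been divided either way. Ifi44 had 1.37, 1.31 and 0.858 FPKM in wild type and 1.37, 1.05 and 3.16 FPKM in the knockout. Its log2 fold change was 0.33 (SE 0.26), and 0.03 without knockout replicate 3. Eif2ak2 (PKR), the kinase that halts translation on double-stranded RNA, had 2.68, 3.07 and 2.22 FPKM in wild type and 2.05, 2.48 and 4.37 FPKM in the knockout. Oas3 was listed at 0 in wild-type replicate 3 and between 0.00777 and 0.0975 FPKM elsewhere.

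The antiviral effectors with the highest levels showed no common order of the libraries. Bst2 (tetherin), which holds budding virus on the cell surface, had 32.2, 21.8 and 13.4 FPKM in wild type and 23.4, 25.7 and 30.6 FPKM in the knockout, so wild-type replicate 1 and knockout replicate 3 were both high. Its log2 fold change was 0.31 (SE 0.32), 0.60 without wild-type replicate 1 and -0.01 without wild-type replicate 3. Isg20, an exonuclease, had 10.9, 12.0 and 17.6 FPKM in wild type and 12.3, 12.5 and 21.4 FPKM in the knockout. It was the single tested member with its lowest value in wild-type replicate 1. Parp9 and Dtx3l, partners in an ADP-ribosylation and ubiquitin ligase complex, were expressed at similar levels. Parp9 had 8.78 to 9.88 FPKM in wild type and 6.74 to 10.8 FPKM in the knockout. Dtx3l, the tested member that varied least over the 6 libraries, had 7.73 to 8.12 FPKM and 6.003 to 8.38 FPKM. Both were highest in knockout replicate 1 and lowest in knockout replicate 3, and their annotated exons overlap on opposite strands. Whether counting used strand is not known, so reads of overlapping genes cannot be told apart. The remaining effectors, Ifit2, Mx2, Oasl2, Rtp4, Xaf1, Trim30a, Parp12 and Parp14, ranged from 0.168 FPKM (Mx2, knockout replicate 2) to 6.31 FPKM (Rtp4, knockout replicate 3), and the groups overlapped for each.

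Among the transcription factors, Irf7 stood out in 1 mouse. Irf7, the factor that amplifies type I interferon production, had 3.24, 3.11 and 2.67 FPKM in wild type and 3.02, 2.58 and 7.21 FPKM in the knockout. Knockout replicate 3 was 2.23 times the next library, and the other 5 lay close together. Its log2 fold change was 0.30 (SE 0.30), and -0.08 without knockout replicate 3. The annotated exons of Irf7 overlap Phrf1 on the opposite strand, and those of Irf9 overlap Rnf31 on the same strand. Phrf1 had its lowest value, 4.45 FPKM, in knockout replicate 3 and 6.92 to 9.93 FPKM in the others. Knockout replicate 3 was also the lowest library for 65.8% of all genes tested. Stat2, which joins IRF9 in the type I complex, had 5.76, 4.41 and 3.62 FPKM in wild type and 4.61, 4.02 and 6.49 FPKM in the knockout. Irf1, an early factor of the type II response, had 7.08, 6.20 and 6.93 FPKM in wild type and 6.40, 5.86 and 8.93 FPKM in the knockout. Irf9, which carries the DNA contact of the type I complex, had 12.3, 8.19 and 8.57 FPKM in wild type and 9.20, 8.12 and 9.40 FPKM in the knockout. For Stat2, Irf1 and Irf9 the highest library exceeded the second by no more than 1.31 times, and the groups overlapped.

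The sensors gave the single tested member whose groups did not overlap. Zbp1, which senses Z-form nucleic acid and can trigger necroptosis, had 1.099, 0.855 and 0.949 FPKM in wild type and 1.12, 1.40 and 1.43 FPKM in the knockout. All knockout values lay above all wild-type values, by a margin of less than the spread within either group. That is 1 of 37 tested members, beside 4.61% of all genes tested without overlap (0.778% with the knockout higher and 3.83% with it lower). The fitted difference was 0.23 on the log2 scale (SE 0.18), with a 95% interval from -0.15 to 0.62 (adjusted p = 0.768, limma). The exact permutation test gave p = 0.1, the smallest value 3 against 3 mice allow. Every gene whose groups do not overlap gets that value, so it adds nothing to the lack of overlap. Ifih1, a sensor of long double-stranded RNA, had 6.46, 6.66 and 4.31 FPKM in wild type and 7.90, 4.87 and 6.90 FPKM in the knockout. Ddx58, which encodes the sensor RIG-I, had 8.31, 5.80 and 4.25 FPKM in wild type and 6.14, 5.14 and 5.59 FPKM in the knockout. The groups overlapped for both. Ddx60 was under the filter, between 0.0394 and 0.115 FPKM.

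The interferon-inducible GTPases defend against microbes inside cells, the guanylate-binding proteins by coating them and the immunity-related GTPases by acting on their vacuoles. All 8 were tested with limma and 0 passed, with 0 at an unadjusted p under 0.05, while 6 had fold changes above 0, and all 8 lay above the median of all genes. Of the 8, 6 were highest in knockout replicate 3 and 2, Gbp2 and Irgm1, in wild-type replicate 1. Gbp3 had 4.15, 4.56 and 3.49 FPKM in wild type and 4.62, 4.01 and 9.13 FPKM in the knockout. Its log2 fold change was 0.38 (SE 0.28), and 0.07 without knockout replicate 3. Gbp6 had 1.07, 1.58 and 0.457 FPKM in wild type and 1.11, 1.48 and 2.10 FPKM in the knockout, a log2 fold change of 0.35 (SE 0.24). It had the smallest unadjusted p of all members (0.175, adjusted p = 0.768, limma), and the exact permutation test gave p = 0.4. The fold change of Gbp6 was 0.21 without knockout replicate 3, 0.13 without wild-type replicate 3 and 0.54 without wild-type replicate 2. Its annotated exons overlap Gm43302 on the same strand. Gbp2, the most abundant of the family here, had 31.0, 19.8 and 14.5 FPKM in wild type and 25.8, 18.8 and 14.9 FPKM in the knockout. Knockout replicate 3 was thus low for Gbp2 and high for Gbp3, which also lies on chromosome 3.

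Ifi47 had 1.73, 1.74 and 0.951 FPKM in wild type and 1.97, 1.54 and 2.55 FPKM in the knockout. Irgm1, a regulator of the other immunity-related GTPases, had 5.63, 4.77 and 3.04 FPKM in wild type and 4.12, 3.51 and 5.28 FPKM in the knockout. Igtp had 4.01, 2.95 and 1.78 FPKM in wild type and 2.66, 2.52 and 4.59 FPKM in the knockout. Ifi47, Irgm1 and Igtp were lowest in wild-type replicate 3, and their groups overlapped. The annotated exons of Igtp and Irgm2 overlap on the same strand. Those of Ifi47 overlap Olfr56, and those of Gbp7 overlap Gm43802, also on the same strand. Gbp7 and Irgm2 ranged from 1.26 FPKM (Irgm2, wild-type replicate 3) to 3.36 FPKM (Gbp7, knockout replicate 3).

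The antigen processing genes held the most abundant member, and their fold changes lay between -0.15 and 0.12 on the log2 scale. B2m, the light chain of class I MHC, had 554, 380 and 259 FPKM in wild type and 361, 417 and 303 FPKM in the knockout, and ranked 42 of all 17739 genes by mean FPKM. No other member exceeded 32.2 FPKM in any library. Psmb8, a subunit of the immunoproteasome that cuts peptides for class I MHC, had 14.98, 13.8 and 9.42 FPKM in wild type and 12.2, 12.2 and 9.30 FPKM in the knockout. Psmb9, another such subunit, had 2.09, 1.71 and 1.02 FPKM in wild type and 1.59, 1.65 and 2.18 FPKM in the knockout. Tap1, which moves peptides into the endoplasmic reticulum, had 6.13, 7.24 and 4.50 FPKM in wild type and 5.64, 6.79 and 6.77 FPKM in the knockout. All were low in wild-type replicate 3, and the wild-type and knockout values overlapped. Knockout replicate 3 had the lowest Psmb8 and the highest Psmb9. Psmb9 and Tap1 start head to head on chromosome 17, and their annotated exons overlap on opposite strands.

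**Figure D5:**
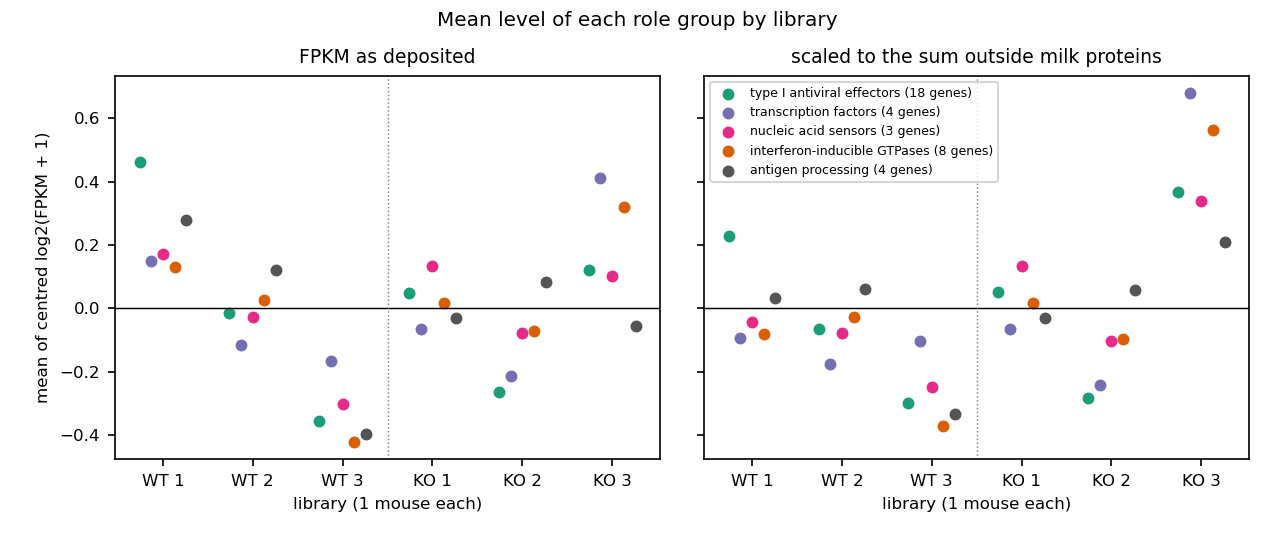
Mean of the centred log2(FPKM + 1) values of the tested members of each role group in each library, with FPKM as deposited (left) and after scaling to the FPKM sum outside milk proteins (right). Antiviral effectors are highest in wild-type replicate 1 on the left (0.46), and on the right all role groups are highest in knockout replicate 3, from 0.21 (antigen processing) to 0.68 (transcription factors). The levels on the left include the shift of all genes between libraries, which is not drawn.

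With FPKM as deposited, the role groups differed in which library had the highest mean, and after scaling outside milk proteins all were highest in knockout replicate 3. As deposited, antiviral effectors had a mean centred level of 0.46 in wild-type replicate 1 and 0.12 in knockout replicate 3. For transcription factors these were 0.15 and 0.41, and for GTPases 0.13 and 0.32. Wild-type replicate 3 was at -0.42 for GTPases and -0.36 for antiviral effectors. The trimmed-mean scale of all genes tested, relative to the average library, was 1.33 in wild-type replicate 1 and 0.730 in knockout replicate 3. That scale was 0.915 in wild-type replicate 3, and the levels as deposited include this shift of all genes. Immune cell marker lists differed in whether knockout replicate 3 was high. Of 10 macrophage markers, 4 were highest there and 6 exceeded every wild-type library, and their summed level was 15.3 to 20.7 FPKM in wild type and 18.0 to 29.2 FPKM in the knockout, with no marker listed at 0 in any library. C1qa, 1 of these 4 and not picked by a rule set beforehand, had 1.06, 1.53 and 1.77 FPKM in wild type. In the knockout C1qa had 0.915, 3.68 and 5.03 FPKM, and it does not stand for the other markers of the list. Ptprc, carried by all leukocytes, had 0.303 FPKM in knockout replicate 3 and 0.0486 to 0.0960 FPKM elsewhere. T and NK cell markers (9 genes) summed to 0.219 to 0.270 FPKM in wild type and 0.327 to 0.890 FPKM in the knockout. Of these 9, 3 were highest in knockout replicate 3 and 1 in wild-type replicate 1. For 4 of the 9, knockout replicate 3 exceeded every wild-type library. Listed at 0 in at least 1 library were 7 of the 9, so these sums lie near the floor. The 5 B and plasma cell markers summed to 0.0696 FPKM in knockout replicate 3 and 0.0581 to 0.211 FPKM elsewhere. The 3 neutrophil markers summed to 1.29 FPKM there and to 2.91 to 8.62 FPKM elsewhere, although 2 of the 3 were highest there. The 6 dendritic cell markers summed to 1.38 FPKM there and 0.517 to 1.48 FPKM elsewhere. The part of immune cells in the result was not tested.

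Of the other genes of the interferon pathway, 82 were listed, 80 were in the table and 54 were tested. None rose or fell past the adjusted threshold (0 higher and 0 lower, limma), and 26 had fold changes above 0 and 28 below it, with a median of -0.03. At an unadjusted p under 0.05 there was 1, Nmi. Nmi had 4.60, 2.82 and 2.32 FPKM in wild type and 0.188, 0.547 and 0.564 FPKM in the knockout, so the groups were apart (log2 fold change -1.54, SE 0.23, adjusted p = 0.372, limma). The genes that follow in this paragraph were chosen after their values were seen. Among the interferon genes, Ifnb1 was listed at 0 to 0.102 FPKM, Ifng at 0 in 5 of the 6 libraries and at 0.0290 FPKM in knockout replicate 3, and Ifne at 0.289 to 0.718 FPKM. The receptor gene Ifngr1 had 35.2 to 81.0 FPKM in wild type and 28.4 to 55.2 FPKM in the knockout. Ifnlr1, of the type III receptor, had 6.66 to 7.18 FPKM in wild type and 5.73 to 12.1 FPKM in the knockout, with its highest value in knockout replicate 1. Ifi35, the partner of NMI, had 6.59 to 8.93 FPKM in wild type and 6.05 to 9.73 FPKM in the knockout. The groups overlapped for each of these genes apart from Nmi.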

How the data were processed

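RNA from mammary epithelial organoids of 6 mice was sequenced, 1 library per mouse, and compared by genotype, 3 against 3. The authors deposited FPKM values in 1 table, made per the submitters' processing notes with TopHat and Cufflinks, beside FastQC and SAMtools, on mm10 (GRCm38). Tool versions, strand settings and gene models were not given in the sources used here. Depth is unknown, so no counting interval was computed. Gapdh was listed at 0 to 0.0769 FPKM, so a value of 0 was not read as absence.

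Genes with at least 1 FPKM in at least 3 libraries were tested on log2(FPKM + 1), which understates changes of low genes, with limma 3.58.1 in R 4.3.3 (empirical Bayes with an intensity trend, two-sided, Benjamini-Hochberg adjustment over all genes). Coordinates came from GENCODE mouse release 21 and promoter windows from RefSeq, both on GRCm38. For 37 of the 44 windows, bases after the start site were found in a GENCODE transcript of the gene. Copies were sought with BLAST 2.17.0 (identity of 95% or above across 50% or more of a gene's longest transcript).

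Members and lists were chosen with earlier results of these data known. Values in every library are given, within each role group, for the 3 members with the smallest p, the 3 with the highest mean FPKM and any without overlap, and for others named as chosen afterwards. Alternatives changed the pseudocount, filter, scaling, weights, covariate and libraries. A gene of the wider pathway list is not reported here.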

Additional observations from a re-analysis of the deposited data

How the results depend on the processing

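With FPKM as deposited, 0 genes in all and 0 members passed the adjusted threshold. Of 592 values of single members under the 16 alternatives other than limma's default library quality weights, all stayed on the same side of the threshold. At most 2 of all genes passed in any of these alternatives, so that count says little about stability. The smallest adjusted p of a member among them was 0.403 (limma, without knockout replicate 2). Signs changed for up to 17 of the 37 members (with the milk covariate, and without both end libraries), none by more than the standard errors. The count of members was 0 without each library in turn, and the members' median log2 fold change then ran from -0.10 to 0.19. It was 0.28 after trimmed-mean rescaling, which moved the median of all genes from -0.21 to 0.01. With that rescaling 32 of 37 members had fold changes above 0, against 21 as deposited, and in both cases 32 lay above the median of all genes. Rescaling shifts all genes by nearly the same amount, so the count above that median could hardly move. Without knockout replicate 3 this count was 25, and it was 36 without wild-type replicate 1 or without knockout replicate 2. The number of members highest in knockout replicate 3 was 15 as deposited and 25 after scaling to the sum outside milk proteins or by the trimmed mean. The share of all genes tested that were highest there also rose, from 7.74% as deposited to 19.7% and 29.98% in that order.

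The default estimator of library quality weights stopped without converging and gave wild-type replicate 2 and knockout replicate 1 weights of 27.6 and 39.2, against at most 0.262 for the others, so that the fit compared little more than those 2 libraries. It called 7740 genes and 21 members. The sign of the fold change differed from the equal-weight one for 20 of the 37 members. Of these, the ones this fit called or that exceeded their standard errors in both fits were Ifit1 (0.90), Ifit2 (0.10), Oasl1 (0.10), Rsad2 (0.20), Parp9 (0.12), Dtx3l (0.10), Irf9 (0.15) and Gbp2 (0.36), and Trim30a (-0.52), Eif2ak2 (-0.41), Parp12 (-0.12), Gbp6 (-0.28), Igtp (-0.10) and Tap1 (-0.30). The gene-by-gene estimator, chosen after seeing the data, called 2 genes and 0 members. Without wild-type replicate 1 and knockout replicate 3 together, 1 gene and 0 members were called. No paired analysis was possible because the labels give each mouse its own number and tie no mice across genotypes. Depth limits could not be computed from FPKM.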
